A study of Rattus norvegicus with 24 samples.

Results

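The comparison described here sets rats with a history of lipopolysaccharide (LPS) and a later course of heroin against rats that received saline in both phases, in the nucleus accumbens, the part of the ventral striatum that receives dopamine input and is central to reward. It rests on 8 RNA-seq libraries of the 24 in the series: 4 labelled LPS-Heroin and 4 labelled Saline-Saline, each from 1 rat. The methods of the study give a larger number of samples per group than the sample records do, so these libraries may be only some of those sequenced. LPS, a bacterial cell wall component used as an immune stimulus, was injected intraperitoneally (IP) at 250 µg/kg, 5 times over about 2 weeks. Heroin, an opioid that acts mainly through the mu opioid receptor, was then injected IP for 5 days at doses that rose from 1 to 5 mg/kg. Saline-Saline rats received saline on the same schedule. All were adult male Sprague Dawley rats, aged 8 weeks on arrival, and all went through a short test of locomotion after the final injection. The groups differ in LPS and heroin together, so this comparison alone cannot tell the 2 treatments apart, and the interval between the phases is given as a week in the sample records and as a shorter one in the study's methods.

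Most neurons of the nucleus accumbens are medium spiny neurons, GABAergic projection cells that carry dopamine receptors and opioid peptides. Their inputs are glutamatergic fibres from cortex, hippocampus, amygdala and thalamus, whose cell bodies lie outside the nucleus, and the septum and ventral forebrain border it. LPS is sensed by Toll-like receptor 4 on myeloid cells, which respond with cytokines, while opioid receptors couple to inhibitory G proteins that open inwardly rectifying potassium channels and lower cyclic AMP.

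Expression is given as FPKM, the fragments assigned to a gene scaled to the gene's length in kilobases and to the size of the library. The 8 libraries held between 14125236 and 18850240 reads on genes, and Pearson's r between libraries of a group, across genes, lay between 0.947 and 0.957. Mitochondrial transcripts took 6.82% to 8.64% of the reads in Saline-Saline and 7.82% to 9.10% in LPS-Heroin. Markers of the labelled tissue were high in every library: Ppp1r1b, which encodes DARPP-32 of medium spiny neurons, lay between 488 and 970 FPKM in Saline-Saline and between 531 and 892 FPKM in LPS-Heroin. The dopamine receptor genes Drd1 and Drd2 overlapped between the groups, with log2 fold changes of 0.13 ± 0.23 (SE) and -0.11 ± 0.24. One library stood apart in tissue content. Saline-Saline replicate 1 had a Ttr level of 318 FPKM against 0 to 24.1 FPKM in the other 7, and the highest values of the choroid plexus, ependyma and septal marker lists. Some of the totals below are therefore also given without it, but not the counts of each list.

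A gene was tested where its mean over the 8 libraries was at least 0.5 FPKM, which kept 15134 of 32545 genes, and was called a differentially expressed gene (DEG) at an unadjusted limma p of at most 0.05 with a change of at least 1.3-fold on the log2(FPKM + 0.1) scale. The study set these thresholds for its analyses of patterns and overlaps, and called differential expression itself by an adjusted p on read counts. By that rule 822 genes (5.43% of those tested) were DEGs. Of these, 452 (2.99%) were upregulated and 370 (2.44%) downregulated. None passed a Benjamini-Hochberg adjusted p of 0.05 across all genes tested. The smallest adjusted p was 0.144, shared by 38 genes, while 1704 genes had an unadjusted p under 0.05, and limma-voom on read counts called 877 DEGs. Each rise or fall below is therefore a change at the unadjusted thresholds. The median log2 fold change was 0.61 among upregulated and -0.64 among downregulated DEGs, and 95 and 85 of them changed at least 2-fold. The 4 libraries of a group lay wholly on one side of the other 4 for 1038 genes tested (6.86%) and for 379 of the DEGs. Without Saline-Saline replicate 1, 664 genes were DEGs, 530 of them among the 822. Most DEGs, 707, were protein-coding (of 13838 tested). Another 29 were small nucleolar RNA genes (of 260), 25 were microRNA genes (of 262) and 17 were lincRNA genes (of 283). The libraries were made from polyadenylated RNA, and 73 DEGs of any kind averaged under 10 reads per library.

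The upregulated genes with the smallest p values had varied functions. Fbxw7, an F-box ubiquitin ligase subunit (0.51 ± 0.07 on the log2 scale), and Slc8a2, a sodium/calcium exchanger (0.55 ± 0.08), came first and did not overlap between the groups. Fbxw7 overlaps the gene model Dear, which leaves its count uncertain. Kcnh1 (chromosome 13, 110920737 to 111232269, rn6), a voltage-gated potassium channel, measured 8.10, 9.95, 10.2 and 10.4 FPKM in Saline-Saline replicates 1 to 4 and 16.4, 16.3, 13.4 and 14.9 FPKM in LPS-Heroin. Every LPS-Heroin library was above every Saline-Saline library, and the log2 fold change was 0.66 ± 0.10 (SE, adjusted p = 0.144). Enc1 (chromosome 2, 28049217 to 28061029), an actin-associated kelch protein of neurons, stood at 118, 143, 129 and 161 FPKM in Saline-Saline and at 245, 222, 184 and 219 FPKM in LPS-Heroin, a rise of 0.66 ± 0.11 on the log2 scale. Again the groups did not overlap. Mmp17, a membrane-bound matrix metalloproteinase, rose from a range of 7.10 to 10.4 FPKM to one of 13.5 to 15.0 FPKM. Rap1gap2, which switches off the small GTPase Rap1, rose from 25.7 to 33.8 FPKM to 40.04 to 45.6 FPKM. The orphan receptor gene Gpr26 (0.73 ± 0.13) and the zinc finger repressor gene Zfp238 (0.58 ± 0.10) rose without overlap as well. Ipcef1 (0.90 ± 0.16) and B3galt2 (0.82 ± 0.14) also rose, but Ipcef1 lies across Oprm1 on the opposite strand and B3galt2 lies over Cdc73, and the use of strand in counting is not given in the sources used here.

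Among the downregulated genes, Phyhd1, a dioxygenase, had the smallest p value (-0.57 ± 0.07). Slc6a11 (chromosome 4, 146106386 to 146223228), the GABA transporter GAT-3 found mainly in astrocytes, measured 44.2, 35.9, 48.4 and 35.2 FPKM in Saline-Saline and 21.8, 17.7, 23.2 and 25.9 FPKM in LPS-Heroin. Its groups did not overlap, and it fell by 0.88 ± 0.14 on the log2 scale. Scg2 (chromosome 9, 85237458 to 85243001), secretogranin II of dense-core vesicles and the precursor of secretoneurin, was at 211, 168, 198 and 189 FPKM in Saline-Saline and at 139, 148, 137 and 132 FPKM in LPS-Heroin. The 4 LPS-Heroin values lay within a narrow range below all controls (log2 fold change -0.46 ± 0.08). Cacna2d2, an auxiliary subunit of voltage-gated calcium channels, fell from 29.0 to 38.7 FPKM to 17.2 to 23.9 FPKM. Atp1b2, the beta subunit of the glial sodium pump, fell from 114 to 131 FPKM to 74.3 to 97.3 FPKM. Timp4, an inhibitor of matrix metalloproteinases, fell by 1.14 ± 0.17, and it overlaps Syn2 on the opposite strand. Grin2d, an NMDA receptor subunit (-0.96 ± 0.16), Vat1 (-0.54 ± 0.09), Fndc9 (-1.11 ± 0.18, within Cyfip2) and the imprinted gene Peg3 (-0.57 ± 0.09, overlapping Apeg3) completed this set. For all genes of these 2 paragraphs the call held when any 1 of the 8 libraries was left out.

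**Figure D1:**
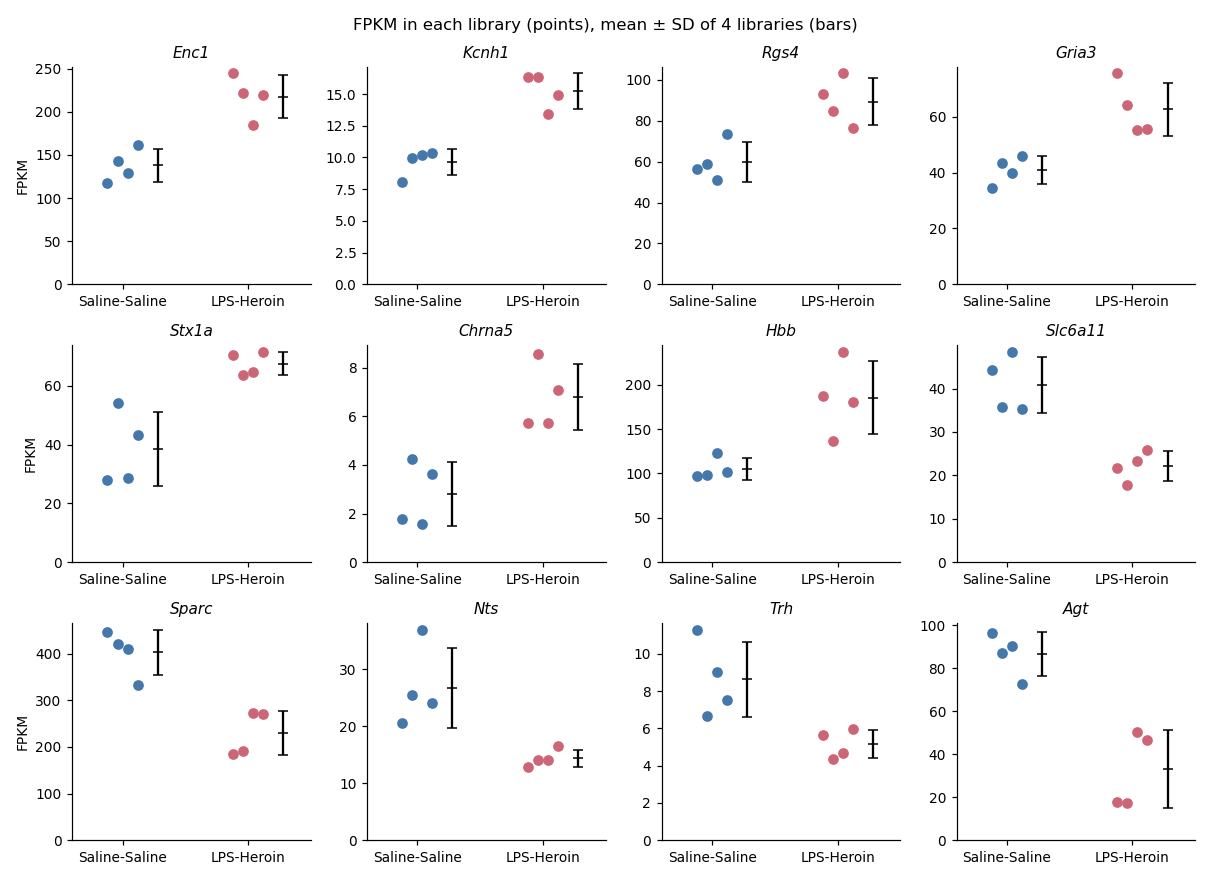
FPKM of 12 genes (vertical axes, linear) in the 4 Saline-Saline and 4 LPS-Heroin libraries, with 1 point per library and the mean ± SD of each group. Enc1, Kcnh1, Rgs4, Gria3, Stx1a, Chrna5 and Hbb were higher and Slc6a11, Sparc, Nts, Trh and Agt lower in LPS-Heroin, with no overlap between the groups.

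The start regions of 3 of the genes described here are shown because each holds a motif of an activity-regulated transcription factor and the genes moved in different directions: Scg2 and the neuropeptide gene Nts fell and the transcription factor gene Neurod6 rose. Each runs from 250 bases before to 50 bases after the RefSeq gene start, 5′ to 3′ on the gene's strand (build GRCr8, minus strand, chr9:88256817-88257116, chr4:86180106-86180405 and chr7:39460839-39461138), with the motif in capitals.
Scg2: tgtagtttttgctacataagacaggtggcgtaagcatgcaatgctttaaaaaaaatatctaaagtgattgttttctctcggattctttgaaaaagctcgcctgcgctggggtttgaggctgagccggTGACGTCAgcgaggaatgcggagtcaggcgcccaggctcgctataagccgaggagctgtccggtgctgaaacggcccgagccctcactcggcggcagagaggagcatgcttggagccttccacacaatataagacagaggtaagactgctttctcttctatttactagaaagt
Neurod6: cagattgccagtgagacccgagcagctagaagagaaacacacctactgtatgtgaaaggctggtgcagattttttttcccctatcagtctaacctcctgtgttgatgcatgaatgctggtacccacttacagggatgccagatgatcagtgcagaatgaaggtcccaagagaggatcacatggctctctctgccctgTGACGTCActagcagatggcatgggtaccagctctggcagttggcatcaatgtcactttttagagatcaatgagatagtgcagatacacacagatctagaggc
Nts: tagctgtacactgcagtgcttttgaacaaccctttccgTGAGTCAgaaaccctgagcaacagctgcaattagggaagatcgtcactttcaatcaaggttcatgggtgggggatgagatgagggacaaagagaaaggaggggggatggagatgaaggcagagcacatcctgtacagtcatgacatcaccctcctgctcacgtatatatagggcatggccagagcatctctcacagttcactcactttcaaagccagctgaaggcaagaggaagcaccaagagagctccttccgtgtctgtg
The capitals mark a cyclic AMP response element (TGACGTCA) that begins 123 bases before the start in Scg2 and 53 bases before it in Neurod6, and an AP-1 motif (TGAGTCA) that begins 212 bases before the start in Nts. The capitals are a match of letters, not a bound site.

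Start regions of this length were at hand for 9917 of the 15134 genes tested (65.5%), among them 246 upregulated and 235 downregulated DEGs, and 4 motifs were searched on both strands. The cyclic AMP response element TGACGTCA was in 3.09% of all 9917, in 4 upregulated (1.63%) and in 8 downregulated DEGs (3.40%). The AP-1 motif TGANTCA was in 4.78% of all, in 17 upregulated (6.91%) and in 15 downregulated DEGs (6.38%). The E-box CAGATG, the motif of neuronal bHLH factors, was in 10.6% of all, 15.4% of upregulated and 13.6% of downregulated DEGs. The NF-kappa B consensus motif was in 1.58% of all, and in 4 upregulated and 4 downregulated DEGs.

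Receptor genes changed in both directions. Against 5.43% of all genes, DEGs made up 26.7% of ionotropic glutamate receptor subunits, 21.4% of GABA-A receptor subunits, 20% of acetylcholine receptors and 16.7% of dopamine and adrenergic receptors, each a list of at most 15 genes tested. Of 15 ionotropic glutamate receptor subunits, 3 rose and 1 fell. Gria3, an AMPA receptor subunit, lay between 34.6 and 46.0 FPKM in Saline-Saline and was at 75.6, 64.3, 55.4 and 55.5 FPKM in LPS-Heroin, with no overlap (0.61 ± 0.12, adjusted p = 0.165). Grik3, a kainate receptor subunit, overlapped between the groups (0.48 ± 0.17) and was no DEG without LPS-Heroin replicate 1 or 2. Of 14 GABA-A receptor subunits, Gabra5 rose (0.47 ± 0.15), while Gabre and Gabrq, which code for less common subunits, fell by 1.97 ± 0.39 and 1.40 ± 0.44. Both were low throughout, with Gabre at 0.957 to 1.91 FPKM in Saline-Saline and 0.164 to 0.538 FPKM in LPS-Heroin. Chrna5 (chromosome 8, 59561817 to 59590172), an accessory subunit of nicotinic acetylcholine receptors, rose most among the acetylcholine receptors. It measured 1.80, 4.24, 1.57 and 3.63 FPKM in Saline-Saline and 5.74, 8.56, 5.71 and 7.10 FPKM in LPS-Heroin, so that all 4 treated libraries exceeded the highest control (1.34 ± 0.32, adjusted p = 0.199). The muscarinic receptor gene Chrm5 fell (-0.84 ± 0.29), a call lost without Saline-Saline replicate 3. The adrenergic receptor gene Adra1d rose (0.97 ± 0.32) with overlapping groups.

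The opioid system held 3 DEGs among its 8 genes tested (37.5%). Oprd1, the delta opioid receptor, rose (0.85 ± 0.37), and Pnoc, the nociceptin precursor, and Pomc, the precursor of beta-endorphin, fell (-0.79 ± 0.32 and -0.51 ± 0.22). These calls were fragile. In all 3 the groups overlapped, and each call was lost without any one of several libraries: Oprd1 without LPS-Heroin 2, 3 or 4 or Saline-Saline 1, 3 or 4, Pnoc without LPS-Heroin 1, 2 or 4 or Saline-Saline 1 or 2, and Pomc without LPS-Heroin 1 or 4 or any Saline-Saline library. The receptor genes Oprm1 (-0.10 ± 0.30) and Oprk1 (0.26 ± 0.24) and the peptide genes Penk (-0.23 ± 0.25) and Pdyn (-0.03 ± 0.23), looked up after their values were seen, were not DEGs. Penk, the most abundant of them, lay between 266 and 626 FPKM in Saline-Saline and between 268 and 394 FPKM in LPS-Heroin.

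Among the 22 other neuropeptide genes tested, 2 rose and 6 fell. Nts (chromosome 7, 44111151 to 44121130), neurotensin, a peptide that modulates dopamine signalling, measured 20.5, 25.4, 36.8 and 24.1 FPKM in Saline-Saline and 12.8, 14.1, 14.1 and 16.5 FPKM in LPS-Heroin. The groups did not overlap, and it fell by 0.86 ± 0.16 (adjusted p = 0.154). Trh, thyrotropin-releasing hormone, was at 11.3, 6.64, 9.03 and 7.54 FPKM in Saline-Saline and at 5.63, 4.36, 4.70 and 5.98 FPKM in LPS-Heroin (-0.71 ± 0.17), and these values did not overlap either. A further 3 hypothalamic peptide genes, chosen after their values were seen, also fell, from low and uneven levels. Oxt, oxytocin, was at 21.3, 3.58, 31.3 and 0 FPKM in Saline-Saline and at 0.251, 0, 0 and 0 FPKM in LPS-Heroin, so Saline-Saline replicate 4 was as low as the treated libraries. Avp, vasopressin, fell by 1.99 ± 0.60, and Crh, corticotropin-releasing hormone, by 1.20 ± 0.44, the latter not without LPS-Heroin replicate 2 or 4 or Saline-Saline replicate 1. Cck, cholecystokinin, which cortical neurons express strongly and which was also chosen after its values were seen, rose by contrast from 113, 318, 100 and 234 FPKM to 423, 406, 266 and 380 FPKM (1.09 ± 0.36), with overlap between the groups.

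Potassium channels held more DEGs than any other function list: of 74 tested, 16 rose and 5 fell, 28.4% against 5.43% of all genes, and the list's median log2 fold change was 0.15 against 0.00 for all genes tested. Beside Kcnh1, the voltage-gated channel gene Kcnh3 rose from 11.9, 16.1, 20.8 and 17.3 FPKM to 25.7, 26.0, 25.6 and 24.3 FPKM (0.64 ± 0.15), and the modifier subunit gene Kcnv1 rose by 0.61 ± 0.12. Neither gene overlapped between the groups. The G protein-gated inward rectifiers, through which opioid receptors hyperpolarise neurons, were looked up after their values were seen. Kcnj9 rose from 18.7, 23.5, 16.1 and 22.9 FPKM to 27.3, 30.6, 29.3 and 26.5 FPKM (0.50 ± 0.12), with no overlap and in every set of 7 libraries. Kcnj3 (0.83 ± 0.30) rose with overlap, a call lost without LPS-Heroin replicate 1 or Saline-Saline replicate 2. Kcnj6 rose (0.85 ± 0.36), a call lost without LPS-Heroin 1, 2 or 4 or Saline-Saline 2 or 3. Kcnj5 fell (-0.58 ± 0.24), a call lost without LPS-Heroin 1, 2 or 4 or Saline-Saline 1, 2 or 3. Kcnh3, as well as Hcn3, Slc6a9, Doc2a and Gli1 below, overlaps another gene in the annotation, which leaves its count uncertain.

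Calcium and sodium handling moved in both directions. Of 35 voltage-gated calcium, sodium and HCN channel genes, 3 rose and 4 fell. Scn8a, the sodium channel Nav1.6 of the axon initial segment, rose from 19.9 to 22.0 FPKM to 23.0 to 34.6 FPKM (0.45 ± 0.14), and the pacemaker channel gene Hcn3 fell slightly (-0.38 ± 0.09). Scn8a was no DEG without LPS-Heroin replicate 1 or 2, nor Hcn3 without LPS-Heroin 2 or Saline-Saline 2 or 4. Of 17 calcium pump and exchanger genes, 3 rose and none fell, at a median of 0.18. Of these, Atp2b4, a plasma membrane calcium pump, and Slc24a2, a potassium-dependent exchanger, had overlapping groups (0.52 ± 0.21 and 0.40 ± 0.16). The Atp2b4 call was lost without LPS-Heroin 1, 2 or 4 or Saline-Saline 3, and that of Slc24a2 without LPS-Heroin 1, 2 or 3 or Saline-Saline 1, 2 or 3. Among 267 solute carriers, 8 rose and 9 fell, a share of 6.37% that is near the background. Slc6a9, the glycine transporter GlyT1, fell from 56.7, 56.8, 43.6 and 54.0 FPKM to 37.3, 37.4, 41.1 and 34.8 FPKM (-0.48 ± 0.09), with no overlap.

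A further 3 genes, of GABA synthesis and loading, were chosen after their values were seen. Slc32a1, the vesicular GABA transporter, fell from 145, 135, 171 and 144 FPKM to 79.2, 106, 114 and 112 FPKM (-0.54 ± 0.12), with no overlap. The GABA-synthesising enzymes Gad1 (-0.37 ± 0.10) and Gad2 (-0.36 ± 0.11) lay below all controls in every LPS-Heroin library but did not reach the fold threshold. All 3 moved with the cortical list value described below (r = -0.80 for Slc32a1, -0.79 for Gad1 and -0.90 for Gad2 over libraries outside this comparison) and with the septal one (0.70, 0.73 and 0.54). The changes computed from both list values were -0.46, -0.42 and -0.30.

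Second messenger genes changed in small numbers, led by a regulator of G protein signalling. Rgs4, which shortens signalling by Gi- and Gq-coupled receptors, measured 56.3, 59.0, 50.9 and 73.6 FPKM in Saline-Saline and 93.1, 84.7, 103 and 76.5 FPKM in LPS-Heroin. The lowest treated library was just above the highest control (0.58 ± 0.13, adjusted p = 0.186). Of 47 genes of cyclic nucleotide synthesis, breakdown and protein kinase A, 2 rose and 2 fell. Adcy1, a calcium-stimulated adenylyl cyclase, rose by 1.01 ± 0.26 with overlapping groups. Adcy7 fell by 0.88 ± 0.18 and the phosphodiesterase gene Pde1a rose by 0.42 ± 0.08, both without overlap, though Pde1a fell short of the thresholds without Saline-Saline replicate 1. The kinase gene Prkce, protein kinase C epsilon, rose (0.43 ± 0.13) in a call lost without LPS-Heroin replicate 4.

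Of 73 synaptic vesicle release genes, 7 rose and 1 fell, 10.96% of the list, with a median of 0.08. Stx1a, the plasma membrane SNARE syntaxin 1A, was at 28.0, 54.1, 28.7 and 43.3 FPKM in Saline-Saline and at 70.4, 63.8, 64.8 and 71.5 FPKM in LPS-Heroin, with no overlap (0.86 ± 0.20). The vesicle protein gene Sv2b rose by 0.94 ± 0.18 and the calcium sensor gene Doc2a by 0.61 ± 0.16. In all 3 the LPS-Heroin libraries were close to one another, while among the controls replicates 2 and 4 were high, as they were for cortical marker genes. Axon guidance genes gave a like count, 7 up and 1 down of 67. Robo2, a receptor for Slit proteins, rose without overlap (0.46 ± 0.10). The ephrin receptor gene Epha7 (0.43 ± 0.12) and the semaphorin gene Sema5b (0.44 ± 0.14) rose too, both calls lost without Saline-Saline replicate 1.

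Genes of the WNT list and of the TGF-beta and BMP list rose where they changed. Of 32 WNT genes 5 were upregulated (15.6%, median 0.17), and of 42 TGF-beta and BMP genes 4 (9.52%), against 2.99% of all genes. None fell. Bmp3, an antagonist-like BMP ligand, rose from 0.6996, 2.02, 1.30 and 1.78 FPKM to 3.18, 3.85, 2.79 and 3.76 FPKM (1.26 ± 0.30), with no overlap. Wnt9a, a WNT ligand (1.09 ± 0.32), and Rspo3, which enhances WNT signalling (0.86 ± 0.29), rose with overlap, and Grem1, a secreted BMP antagonist, without it (1.10 ± 0.33). The hedgehog ligand gene Shh and the hedgehog target and effector gene Gli1 were singled out after their values were seen. Shh fell from 2.28, 5.12, 4.21 and 3.97 FPKM to 1.17, 0.930, 1.78 and 1.67 FPKM (-1.41 ± 0.29), and Gli1 fell from 2.58, 2.67, 2.74 and 2.39 FPKM to 1.08, 0.940, 1.49 and 1.74 FPKM (-0.97 ± 0.21). Neither overlapped between the groups. Among 45 other matrix genes, 2 rose and 3 fell. Sparc, an abundant matrix protein of astrocytes and vessels, was at 446, 421, 410 and 332 FPKM in Saline-Saline and at 185, 191, 272 and 270 FPKM in LPS-Heroin, with no overlap (-0.82 ± 0.15).

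Among transcriptional regulators, those of regional identity held the larger share of DEGs. Of 133 homeobox, SOX, FOX, LIM and bHLH genes tested, 6 rose and 14 fell (15.0%), and of 35 genes with a homeobox domain 1 rose and 9 fell (28.6%). By contrast, 11 of 322 zinc finger and BTB genes (3.42%) and none of 127 chromatin enzymes were DEGs. Among those that rose were factors of cortical projection neurons. Tbr1 rose from 10.6, 17.7, 6.45 and 15.6 FPKM to 27.2, 26.1, 24.7 and 25.6 FPKM (1.13 ± 0.27), and Neurod6 (chromosome 4, 85911861 to 85915099, rn6) from 7.47, 18.9, 3.85 and 19.1 FPKM to 28.0, 27.3, 25.2 and 23.6 FPKM (1.35 ± 0.46). Both were wide apart among the controls and even among the treated libraries. Several that fell mark ventral forebrain neurons. Nkx2-1, which specifies the medial ganglionic eminence and its derivatives, fell by 1.00 ± 0.26, and Lhx6, a factor of interneurons from the same source, fell from 9.80, 10.2, 14.1 and 10.4 FPKM to 4.26, 5.14, 8.25 and 6.09 FPKM (-0.92 ± 0.20). Neither overlapped. Lhx8, which is needed for forebrain cholinergic neurons and was chosen after its values were seen, fell by 1.48 ± 0.49 with overlap. The thyroid hormone receptor gene Thrb, also chosen so, rose (0.53 ± 0.11) without overlap.

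Immune lists held few DEGs, in shares on either side of the 5.43% of all genes. Of 62 cytokine and chemokine genes 2 fell (3.23%), and of 34 Toll-like receptor and NF-kappa B genes 1 fell (2.94%). Of 22 complement genes none was a DEG. Of 41 interferon-stimulated genes 3 fell (7.32%, against 2.44% of all genes downregulated). No gene of these 4 lists rose. The interferon-stimulated list had the lowest median of them, -0.24, with 30 of 41 genes below 0. Irgm, an interferon-induced GTPase, fell from 2.20, 2.25, 1.90 and 2.05 FPKM to 1.01, 1.10, 1.04 and 1.54 FPKM (-0.80 ± 0.19), and the groups did not overlap. Ifi44 (-0.63 ± 0.23) lost its call without LPS-Heroin replicate 3 or Saline-Saline replicate 1, and Igtp (-0.57 ± 0.25) kept it only without LPS-Heroin replicate 4. Tnfrsf4, the OX40 receptor, fell (-0.85 ± 0.28) at 1.21 to 2.01 FPKM in Saline-Saline and 0.4995 to 1.05 FPKM in LPS-Heroin. A few genes nearest to the LPS signal were looked up after their values were seen and were hardly measurable: Tlr4 lay between 0.170 and 0.571 FPKM and Il1b between 0 and 0.149 FPKM over the 8 libraries, both under the filter, and Tnf had no read in any of them. Nfkbia, a feedback target of NF-kappa B chosen in the same way, was not a DEG (0.34 ± 0.17). Of 24 antigen presentation genes 2 fell (8.33%) and none rose. These were RT1-T24-4 and RT1-S3, whose reads cannot be assigned with certainty among the near-identical genes of that family.

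Stress, activity and housekeeping lists stayed near or below the background. Of 37 immediate early genes only Dusp1, a phosphatase of MAP kinases, rose (0.39 ± 0.17), and only in 3 of the 8 sets of 7 libraries, not without LPS-Heroin 1 or 3 or Saline-Saline 1, 2 or 3. The activity-regulated genes Fos (-0.54 ± 0.32), Arc (-0.81 ± 0.51) and Egr1 (-0.29 ± 0.22) were looked up after their values were seen and were not DEGs with all 8 libraries. Without LPS-Heroin replicate 1 they were, at -0.88, -1.33 and -0.51. Fos was at 24.3, 28.6, 25.3 and 39.8 FPKM in Saline-Saline and at 40.3, 17.4, 13.3 and 16.8 FPKM in LPS-Heroin, so replicate 1 stood above all controls and the other 3 below. Against the same controls all 3 genes were DEGs in Saline-Heroin (-0.96 ± 0.20, -1.19 ± 0.44 and -0.60 ± 0.20), and in the separate Heroin-SA comparison Fos (-0.64 ± 0.27) and Arc (-0.55 ± 0.21) were. In LPS-Saline they lay above 0 and were not DEGs (0.42 ± 0.20, 0.49 ± 0.24 and 0.28 ± 0.15). All 3 moved with the cortical list value described below (r = 0.87, 0.72 and 0.82) and against the septal one (-0.55, -0.88 and -0.89). The changes computed from both list values were positive (0.47, 1.24 and 0.62). Among 23 glucocorticoid response genes Mt2A rose (0.43 ± 0.16) beside Dusp1, a call lost without LPS-Heroin 3 or 4 or Saline-Saline 2, and Fkbp5, chosen after its values were seen, did not (0.10 ± 0.14). Of 29 heat shock and chaperone genes only the co-chaperone gene Bag3 changed, a fall from 6.15 to 7.95 FPKM to 3.18 to 5.79 FPKM (-0.74 ± 0.18). None of 21 clock genes was a DEG, and 2 of 91 oxidative phosphorylation genes and 2 of 72 ribosomal protein genes were, among them Atp5f1 and Rps19, for which overlapping or near-identical gene models leave the counts uncertain.

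**Figure D2:**
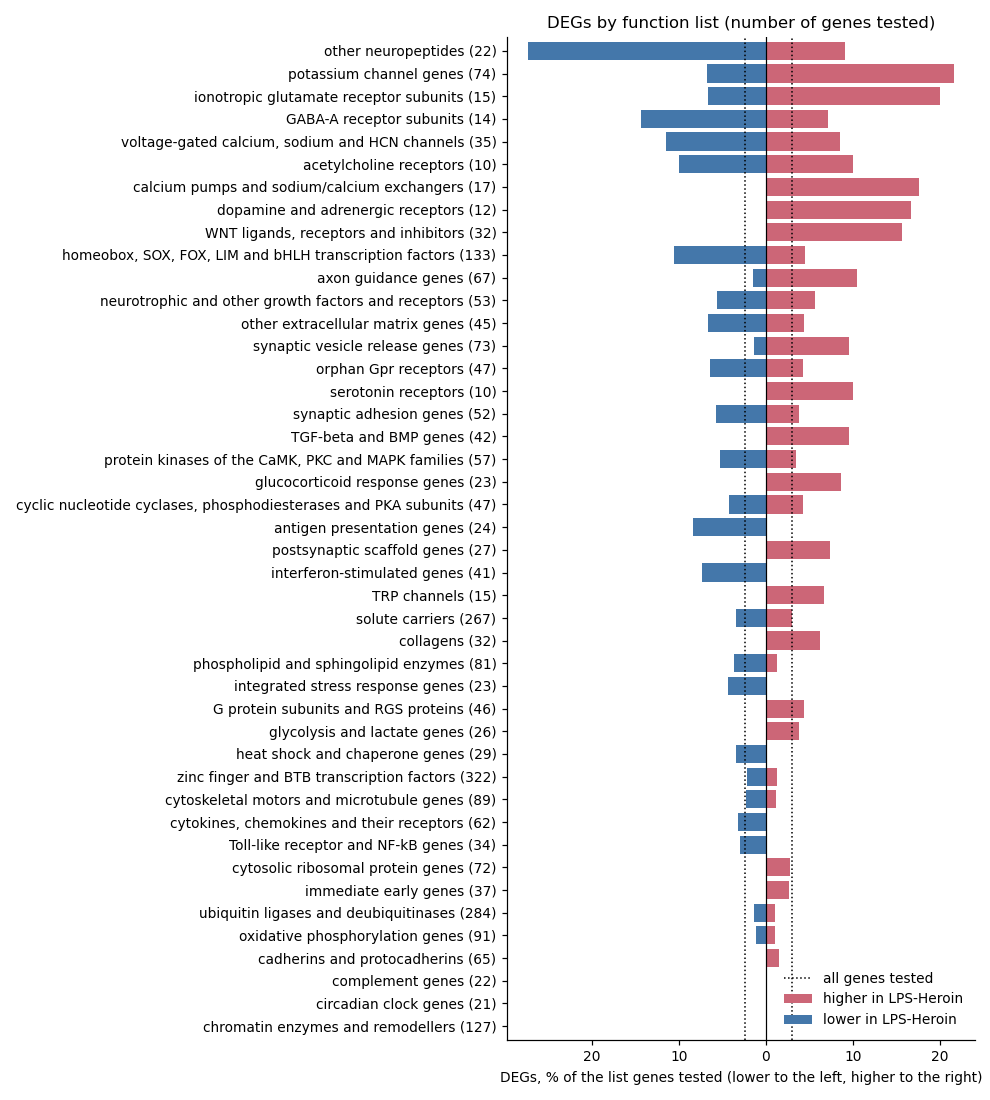
Share of each function list's tested genes that were DEGs (horizontal axis, %), with downregulated genes to the left and upregulated genes to the right, for lists with at least 10 genes tested. Dotted lines mark the shares of all 15134 genes, 2.44% down and 2.99% up, and potassium channels, neuropeptides and regional transcription factors reach well past them while chromatin, clock and complement genes have none.

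Of the 822 DEGs, 217 belonged to any of the function, cell type and tissue lists, which together hold 2833 of the genes tested, and 605 to none. Without Saline-Saline replicate 1 the lists held 168 DEGs. The list median, its counts and the values per library stand in for a test of a list here.

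Of the lists of cell types that reside in the nucleus accumbens, GABAergic interneurons held the largest share of DEGs. Of 13 genes tested, Cck rose and Lhx6, Npy2r and Elfn1 fell (30.8% against 5.43% of all genes), the list's median log2 fold change was -0.17, and its value overlapped between the groups. Each of these 4 genes followed the cortical or septal tissue list in the sense defined below. None of 3 cholinergic genes was a DEG, with all 3 below 0 and a median of -0.48. Of 28 medium spiny neuron genes 1 fell, the transcription factor gene Isl1, which was lost without LPS-Heroin 1 or 2 or Saline-Saline 1 or 3, and the list's median log2 fold change was 0.10. None of 8 oligodendrocyte precursor genes, 25 mural and fibroblast genes or 20 ependymal genes was a DEG. The ependymal list nevertheless had a median log2 fold change of -0.61, with 19 of its 20 genes below 0. Of 8 choroid plexus genes 1 fell, and that list's median was -0.65. Both lists had their highest value in Saline-Saline replicate 1, and their values overlapped between the groups. Of 25 oligodendrocyte genes only Sox10 fell (-0.49 ± 0.16), not without LPS-Heroin replicate 4, although all 25 had a negative log2 fold change (median -0.23). Microglia held 1 DEG in each direction among 23 genes, of which 19 lay below 0 and 4 above (median log2 fold change -0.12). Tmem119, a marker of homeostatic microglia, rose from 14.5, 11.9, 11.2 and 10.6 FPKM to 15.7, 14.9, 16.7 and 18.5 FPKM (0.45 ± 0.11), with no overlap. The lysosomal gene Cd68 fell (-0.77 ± 0.31), but only in 2 of the 8 sets of 7 libraries, those without LPS-Heroin replicate 4 or Saline-Saline replicate 2. Aif1, the gene of the microglial marker IBA1, was not a DEG (-0.20 ± 0.17). In bulk tissue, fewer cells of a type and less RNA per cell cannot be told apart.

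Astrocyte genes fell at 3 of 24: Slc6a11, described above, Itih3 and Agt. Agt (chromosome 19, 57321640 to 57333433), angiotensinogen, which astrocytes secrete and which is expressed unevenly across brain regions, was at 96.6, 87.3, 90.1 and 72.6 FPKM in Saline-Saline and at 17.6, 17.1, 50.5 and 46.8 FPKM in LPS-Heroin. LPS-Heroin replicates 1 and 2 were the lowest, and no library overlapped (-1.57 ± 0.36, adjusted p = 0.198). Itih3, a hyaluronan-binding protein, fell from 108 to 147 FPKM to 55.4 to 91.1 FPKM (-0.83 ± 0.18). The general astrocyte marker Gfap was not a DEG (0.07 ± 0.15), and the astrocyte list's median was -0.195.

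Hemoglobin genes were higher in LPS-Heroin. Of 5 red blood cell genes tested, 4 rose and none fell, with a median log2 fold change of 0.62. Hbb, a beta globin, measured 96.8, 98.2, 123.2 and 101 FPKM in Saline-Saline and 187, 137, 237 and 180 FPKM in LPS-Heroin. All treated libraries were above all controls (0.80 ± 0.15, adjusted p = 0.154). Hba1, an alpha globin, was at 219, 242, 337 and 240 FPKM in Saline-Saline and at 423, 308, 446 and 368 FPKM in LPS-Heroin (0.58 ± 0.15), where Saline-Saline replicate 3 reached into the treated range. Globin genes are near copies of one another, so the split between them is uncertain, and the source of the transcripts was not tested. The 4 calls held without any 1 library. With all 16 injection libraries in the fit 1 red blood cell gene rose, and with all 24 none did.

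The lists of cortical glutamatergic neurons and of septum and ventral forebrain had the largest medians of the 16 cell type and tissue lists. The third list of neighbouring tissue, layer 6b and claustrum, had a median of 0.26 and no DEG among 7 genes. The list of cortical glutamatergic neurons held 11 upregulated genes and none downregulated among 14 tested (78.6%), with a median log2 fold change of 0.99. With all 16 injection libraries in the fit 6 of them rose, and with all 24, 5 did. Slc17a7 (chromosome 1, 101161372 to 101173195), the vesicular glutamate transporter VGLUT1, measured 108, 224, 73.8 and 227 FPKM in Saline-Saline and 374, 329, 280 and 349 FPKM in LPS-Heroin. The groups did not overlap (1.22 ± 0.34), and the controls fell into a high pair, replicates 2 and 4, and a low pair. The list of septum and ventral forebrain held 11 downregulated genes and none upregulated among 19 tested (57.9%), with a median of -1.12 and all 19 below 0. Baiap3, a regulator of dense-core vesicle release, was at 36.3, 17.9, 20.1 and 17.1 FPKM in Saline-Saline and at 5.28, 4.04, 11.99 and 10.5 FPKM in LPS-Heroin (-1.58 ± 0.37), and the imprinted gene Magel2 fell by 1.39 ± 0.32. Irs4, an insulin receptor substrate of hypothalamic and septal neurons, fell from 1.03 to 4.33 FPKM to 0.0169 to 0.444 FPKM. The septal marker Zic1 was not a DEG (-1.08 ± 0.64), at 57.7, 6.77, 10.5 and 31.4 FPKM in Saline-Saline and 7.65, 5.63, 8.46 and 17.4 FPKM in LPS-Heroin.

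A list value, the mean log2(FPKM + 0.1) of a list's genes in a library, summarises this. The cortical list value was 2.40, 3.14, 2.16 and 3.44 in Saline-Saline and 3.69, 3.72, 3.57 and 3.81 in LPS-Heroin. The septal list value was 3.14, 1.88, 2.11 and 2.49 in Saline-Saline and 1.08, 0.652, 1.53 and 1.70 in LPS-Heroin. These 2 were the only lists of 16 whose values did not overlap between the groups. The difference of means was 0.915 for the cortical list and -1.17 for the septal list, against 0.0406 for the medium spiny neuron list and -0.109 for microglia. The red blood cell value, 4.05 to 4.66 in Saline-Saline and 4.66 to 5.27 in LPS-Heroin, overlapped at a single pair of libraries. Since the cortical and septal values separate the groups, treatment and the content of neighbouring tissue cannot be told apart for genes that move with them.

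**Figure D3:**
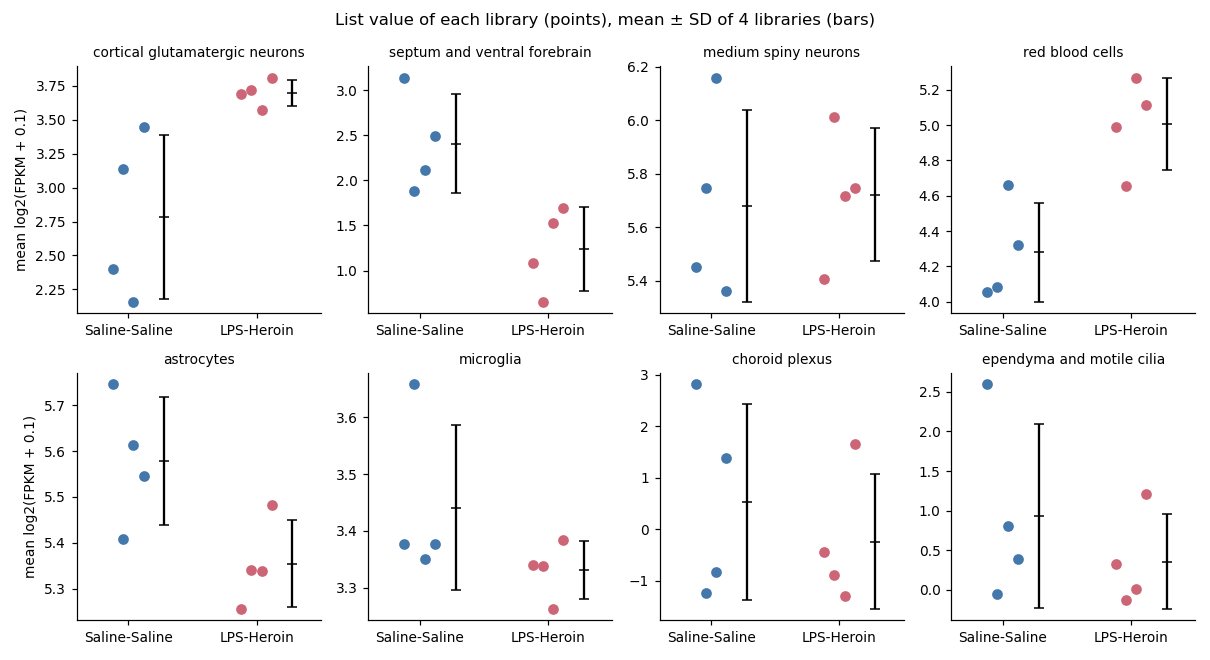
List value, the mean log2(FPKM + 0.1) of the list's genes (vertical axes), in the 4 Saline-Saline and 4 LPS-Heroin libraries for 8 cell type and tissue lists, with 1 point per library and the mean ± SD. The cortical values (LPS-Heroin 3.57 to 3.81) lie above and the septal values (0.652 to 1.70) below all controls, while medium spiny neurons, astrocytes, microglia, choroid plexus and ependyma overlap.

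How many DEGs follow these tissues was read from the 16 libraries outside the comparison (LPS-Saline, Saline-Heroin, Heroin-SA and Saline-SA). A gene was said to follow a tissue where its level correlated with the list value over those 16 libraries, group means removed, at an absolute Pearson r of at least 0.7, and where its slope times the list difference had the sign of its own change. List genes were left out. These correlations describe libraries that share dissection and processing, and carry no p. Of 811 DEGs, 192 (23.7%) followed the cortical list in the direction of their change, against 5.09% of all genes tested. The share was 36.5% of the upregulated (161 of 441) and 8.38% of the downregulated DEGs (31 of 370). Without Saline-Saline replicate 1 it was 22.7% (149 genes), and over all leave-outs the count ranged from 134 to 230.

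The septal list was followed by 119 of 811 DEGs (14.7%), against 2.53% of all genes. Here the downregulated DEGs led, with 84 of 359 (23.4%), and 35 of 452 upregulated DEGs (7.74%) followed it by rising where septal genes fell. This share depends on how the list is set. With Zic genes, Trpc4, Crhr2 and Gbx1 only it was 2.68% (22 genes), against 1.15% of all genes, and with group means kept 7.64% (1.10%). At an absolute r of at least 0.5 it was 38.3% (11.2%), at 0.8 it was 5.80% (0.728%), and over only the 8 outside injection libraries 30.6% (9.63%). Over only the 8 self-administration libraries it was 10.9% (5.76%). Without Saline-Saline replicate 1 the share was 13.7%. Counted together, 279 of 800 DEGs (34.9%) followed either list or both, 160 the cortical alone, 91 the septal alone and 28 both, against 7.11% of all genes. The other 521 followed neither, 263 of them up and 258 down, and all 73 DEGs under 10 reads were among these. The share that follows is not particular to these 2 lists. By the same rule 18.7% of DEGs followed the layer 6b and claustrum list (3.15% of all genes), 18.0% the cholinergic list of 3 genes (2.45%) and 13.9% the astrocyte list (2.78%), while 1.46% followed microglia (1.14%) and 0.365% medium spiny neurons (2.16%). The cortical and septal list values were themselves correlated over the 16 libraries (r = -0.576).

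A further reading used both slopes together to compute the change that the 2 list differences would give each gene. The computed and observed changes had the same sign for 637 of 800 DEGs (79.6%), against 61.1% of all genes. For 412 DEGs (51.5%) the computed change passed the fold threshold, against 16.2% of all genes, and for 429 (53.6%) it was at least 0.5 times the observed one, against 46.5%. These pairs are not like for like. A DEG changed by at least 1.3-fold, while all genes have no such floor. A small observed change is easily matched in size, and its sign is less certain. With a list value as a covariate in the fit of the 8 libraries, 499 DEGs were called with the cortical and 534 with the septal value, and 425 with both, of which 93 were among the 822.

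**Figure D4:**
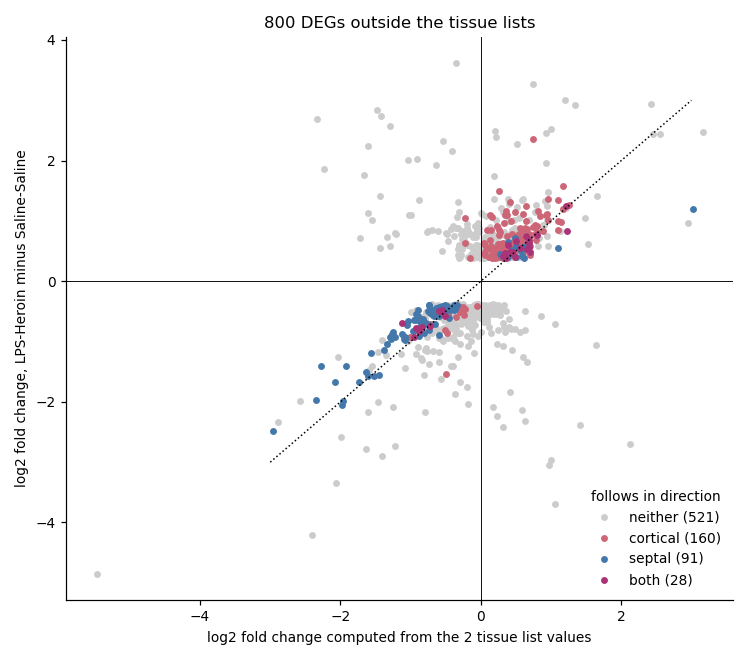
Observed log2 fold change, LPS-Heroin against Saline-Saline (vertical axis), against the log2 fold change computed from the cortical and septal list values (horizontal axis), with 1 point per DEG (800) coloured by the list it follows. The 160 cortical and 91 septal genes lie mostly to the right and to the left, and the 521 that follow neither spread along the horizontal axis in both directions.

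The DEGs of each function list were sorted in the same way. Among the 21 potassium channel DEGs, 11 followed the cortical list alone, 3 the septal list alone and 1 both, 1 is itself a cortical list gene, and 5 followed neither (Kcnip1 and Kcnj5 among them). Of the 8 release genes, 3 followed the cortical list, among them Stx1a with r = 0.98, and 4 followed neither. Chrna5 (r = 0.90), Bmp3 (0.91), Rspo3 (0.96), Kcnj9 (0.93) and Cck (0.97) were tied to the cortical value as tightly. Among the leading genes, Enc1 and Gria3 followed both lists, as did Cacna2d2 by falling (r = -0.80 with the cortical and 0.81 with the septal value). Fbxw7, Rap1gap2 and B3galt2 followed the cortical list, and Nts and Scg2 followed it by falling (r = -0.75 and -0.72). The septal value was tied to Kcnh1 (r = -0.75), Zfp238 (-0.76), Rgs4 (-0.71), Slc6a11 (r = 0.86), Grin2d (0.85), Sparc (0.89), Agt (0.85), Peg3 (0.90), Vat1 (0.85), Gabre (0.88) and Gabrq (0.90). Of the 20 DEGs among homeobox, SOX, FOX, LIM and bHLH genes 7 followed neither list, and of the 11 among zinc finger and BTB genes 8 did.

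Other DEGs were not tied to either value at that limit. Among the leading genes these were Mmp17 (r = 0.32 with the cortical and -0.53 with the septal value), Gpr26 (0.09 and -0.32), Phyhd1 (-0.42 and 0.07) and Ipcef1 (0.49 and -0.20). Others came nearer to the limit: Timp4 (-0.69 and 0.64), Slc8a2 (0.56 and -0.64), Atp1b2 (-0.42 and 0.64) and Fndc9 (-0.45 and 0.53). They also included Trh (-0.22 and 0.55), Slc6a9 (-0.52 and 0.31), Thrb (0.43 and -0.33), Shh (-0.52 and 0.60) and Gli1 (-0.21 and 0.68). All DEGs of the opioid, calcium pump, cytokine, Toll-like receptor, interferon-stimulated, antigen presentation, microglial, endothelial and red blood cell lists followed neither. For several of these the change computed from both list values, by the reading above, was close to or beyond the observed one: -1.55 against -1.41 for Shh, -1.42 against -0.97 for Gli1 and -0.68 against -0.71 for Trh. For Slc6a9 it was -0.12 against -0.48 and for Thrb 0.20 against 0.53. Among the leading genes it was -0.79 against -1.14 for Timp4, -0.42 against -0.54 for Atp1b2 and -0.78 against -1.11 for Fndc9. For Slc8a2 it was 0.30 against 0.55 and for Mmp17 0.37 against 0.73. Less was computed for Gpr26 (0.22 against 0.73), Ipcef1 (0.14 against 0.90) and Phyhd1 (0.01 against -0.57). The peptide genes Oxt, Avp and Crh followed neither list either. Their computed changes were -5.47 against -4.86, -2.58 against -1.99 and -1.14 against -1.20. An r under the limit does not show that a gene is independent of the tissue.

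Rats that took heroin themselves give a separate set of libraries. Heroin-SA rats self-administered heroin at 0.075 mg/kg per infusion in 10 daily sessions and Saline-SA rats self-administered saline, with 4 libraries each, none of them shared with the comparison above. Of 439 upregulated LPS-Heroin DEGs tested there, 42 (9.57%) were also upregulated DEGs, against 3.04% of all genes, and 2 were downregulated. Of 356 downregulated DEGs, 45 (12.6%) were also downregulated, against 2.41% of all genes, and 5 were upregulated. In all, 94 genes were DEGs in both comparisons and 87 of them changed in the same direction, 11.4% of the 822 and 11.5% of the 819 Heroin-SA DEGs (5.45% of those tested). The median Heroin-SA log2 fold change was 0.20 for upregulated and -0.18 for downregulated DEGs, against 0.01 for all genes. Left without Heroin-SA replicate 4, whose cortical list value was 1.41 against 3.40 to 3.54 in the other 3, the count of 87 became 156, and over all leave-outs it ranged from 63 to 156. Following was itself read partly from the Heroin-SA and Saline-SA libraries, so the next shares are not independent of that choice. Genes chosen for their spread within these groups can pass the thresholds there less easily. Of 143 upregulated DEGs that followed the cortical list alone, 4 were upregulated in Heroin-SA (2.80%), as were 4 of 17 that followed the septal list alone (23.5%), 4 of 18 that followed both (22.2%) and 30 of 250 that followed neither (12%). Of 70 downregulated DEGs that followed the septal list alone, 15 fell again (21.4%), as did 0 of 17 that followed the cortical list alone, 1 of 10 that followed both and 26 of 250 that followed neither (10.4%). The septal list value was also lower in Heroin-SA, 1.01 to 1.37 against 1.31 to 2.01, with an overlap at a single pair of libraries.

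Among the DEGs described above, those called in the same direction in self-administration were, upward, Enc1 (0.50 ± 0.18 in Heroin-SA), Gpr26 (0.79 ± 0.15), Rgs4 (0.40 ± 0.15), Adcy1 (1.05 ± 0.34), Slc24a2 (0.75 ± 0.17) and Prkce (0.40 ± 0.14). Downward they were Trh (-0.90 ± 0.31), Sparc (-0.39 ± 0.15), Agt (-0.98 ± 0.26), Baiap3 (-0.63 ± 0.21) and Lhx8 (-0.71 ± 0.31). Nts did not repeat (0.28 ± 0.22), and neither did Chrna5 (0.16 ± 0.51), Scg2 (-0.03 ± 0.11) or Hbb (0.22 ± 0.66).

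**Figure D5:**
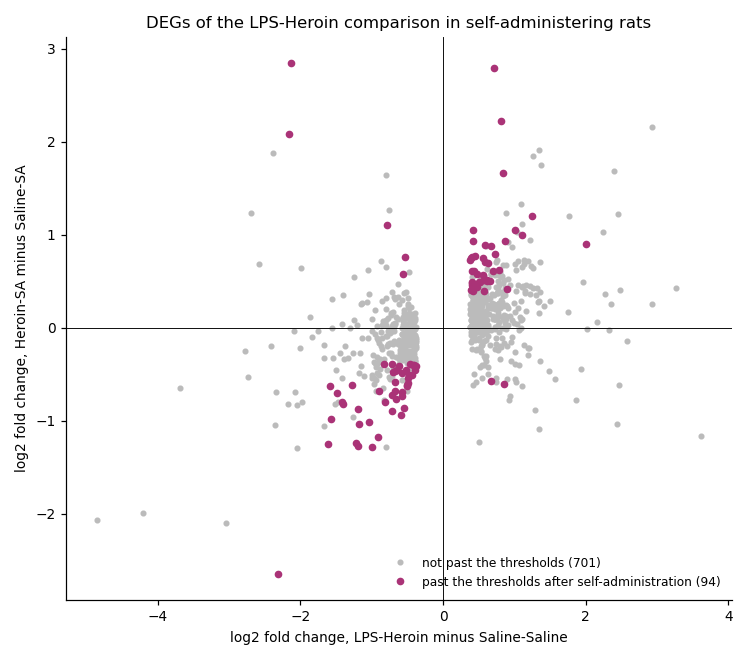
Log2 fold change in Heroin-SA against Saline-SA (vertical axis) against that in LPS-Heroin against Saline-Saline (horizontal axis), with 1 point for each of the 795 LPS-Heroin DEGs tested in both and the 94 past the thresholds in both marked. Of the marked genes 87 have the same sign on both axes.

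The 2 single treatments were measured against the same Saline-Saline libraries, so their values are set side by side with no test of likeness. DEGs made up 2.37% of genes in LPS-Saline and 3.07% in Saline-Heroin. Kcnh1 was 0.39 ± 0.09 higher in LPS-Saline and 0.43 ± 0.13 in Saline-Heroin (log2), and 0.66 ± 0.10 with both treatments. Enc1 gave 0.49 ± 0.15 and 0.46 ± 0.15, and Gria3 0.36 ± 0.13 and 0.36 ± 0.14. Slc6a11 gave -0.32 ± 0.31 and -0.59 ± 0.27, and Agt -0.79 ± 0.36 and -0.84 ± 0.43. For Nts the value was 0.16 ± 0.28 in LPS-Saline and -0.61 ± 0.23 in Saline-Heroin, and for Chrna5 it was 0.48 ± 0.40 and -0.16 ± 0.50. A test of whether the combined effect departs from the sum of the single effects gave no gene an adjusted p under 0.05. The smallest of 15113 was 0.163, and 607 genes had an unadjusted p under 0.05.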

How the data were processed

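RNA was extracted from nucleus accumbens (core and shell) tissue of single rats, selected for polyadenylated RNA and made into directional libraries. Per the labels the reads were processed with fastp, HISAT2 and featureCounts on rn6. Versions, and whether strand was used in counting, are not given in the sources used here. The values analysed are FPKM, which the authors deposited for 32545 genes in 24 libraries. Multiplied by gene length, 100% of the FPKM values came out as whole reads within 0.01 of a read, which gave each library's depth.

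The 8 libraries of LPS-Heroin and Saline-Saline were compared with limma 3.58.1 (R 4.3.3, empirical Bayes with a mean-variance trend) on log2(FPKM + 0.1), for genes with a mean of at least 0.5 FPKM. A fold change is on that scale and understates the change of low genes. A gene was a DEG at an unadjusted limma p no greater than 0.05 with a log2 change of 0.378 or more in either direction, the thresholds that the study used for pattern and overlap analyses (it called differential expression by an adjusted p on read counts), and Benjamini-Hochberg adjusted p values cover all genes tested. Since FPKM values are not counts, limma-voom on recovered reads was run as an alternative. With 4 rats a group, p values rest on the spread between single animals, and an exact permutation test of a single gene could not go below 0.0286.

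Members and gene lists were chosen with earlier results of these data known. Named genes are the 10 up- and 10 downregulated protein-coding DEGs with the smallest p, at least 20 reads on average and no overlap between groups, up to 3 DEGs of each list, and tissue markers. Others are said to have been chosen after their values were seen. Some genes are counted but not reported here by name. Following a tissue list, list values, start regions (RefSeq, GRCr8) and the Heroin-SA comparison are described where they are used. Libraries other than these 8 entered the slopes, the Heroin-SA fit, the values of the single treatments and the test of the combined effect. They also entered the fits of this comparison that held all injection libraries or all libraries of the series.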

Additional observations from a re-analysis of the deposited data

Results flagged for a closer look

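A library was singled out where, among the 4 of a group, its gap to the nearest other library took up more of the group's range than Dixon's critical value at the 95% level allows. This is met by chance in about 1 of 20 groups of 4, and it was met in 23 of 332 gene groups and 3 of 32 groups of list values, so the cases below are close to the number that chance gives. No cause was tested.

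In Saline-Saline, replicate 1 stood apart for Kcnh1 (8.10 FPKM, low) and Grm2 (4.77 FPKM, high). Replicate 2 was low for Phyhd1 (17.5 FPKM), Atp1b2 (114 FPKM), Bag3 (6.15 FPKM) and Klhl1 (1.32 FPKM), and high for Gabra5 (28.9 FPKM) and Gpr19 (8.34 FPKM). Replicate 3 was low for the calcium pump gene Atp2b4 (16.4 FPKM) and high for Vegfb (21.0 FPKM), Lhx6 (14.1 FPKM) and Gpr165 (9.18 FPKM).

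In LPS-Heroin, replicate 1 was high for the stress kinase gene Map3k5 (5.18 FPKM), Col5a1 (3.88 FPKM) and Oxt (0.251 FPKM, the other 3 at 0) and low for Tppp3 (21.9 FPKM). Replicate 2 was low for Chpt1 (11.3 FPKM). Replicate 3 was low for Adrb1 (11.1 FPKM), Prkce (48.2 FPKM) and Epha7 (17.1 FPKM), where the other 3 libraries were close together and higher. Replicate 4 was low for Rpl12 (212 FPKM) and the endothelial tight junction gene Cldn5 (34.0 FPKM).

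Of the list values, replicate 4 of LPS-Heroin was low for oligodendrocytes (6.14), replicate 2 of Saline-Saline was high for microglia (3.66), and replicate 3 of Saline-Saline was low for neuroblasts and dividing cells (2.74), all as a mean log2(FPKM + 0.1).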

How the results depend on the processing

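Limits. No gene passed an adjusted p of 0.05, so the calls rest on unadjusted p values, and the cortical and septal list values separate the groups, so a fit with them as covariates has little contrast left. Leaving out any 1 of the 8 libraries gave 664 to 988 DEGs (358 to 570 up, 306 to 418 down). Of the 130 named DEGs, 80 kept their call in every such fit and none turned.

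With the cortical list value as a covariate 499 genes were called (276 up, 223 down), with the septal value 534 (280 up) and with both 425 (228 up, 197 down). An unadjusted p alone gave 1704 (976 up, 728 down) and p of at most 0.01 gave 341 (186 up, 155 down). The 217 DEGs in lists became 103, 114 and 62 with the cortical, the septal and both covariates, and 168 to 270 without a library. Named DEGs kept their call in 45, 38 and 16 of 130 cases in these 3 fits. Over all leave-outs, 9 to 12 cortical list genes rose, 8 to 12 septal list genes fell and 4 red blood cell genes rose. With the cortical, the septal and both covariates, 1, 2 and 0 cortical list genes rose, 2, 0 and 0 septal list genes fell, and 4, 2 and 3 red blood cell genes rose.

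DEGs that follow the cortical list, 192 (23.7% against 5.09% of all genes), became 339 at an absolute r of at least 0.5 (41.8% against 15.1%). At 0.8 they were 118 (14.5% against 2.14%), and over only the 8 outside injection libraries 306 (37.7% against 10.8%). Over only the 8 self-administration libraries they were 220 (27.1% against 9.71%), and without a library 134 to 230. Those that follow the septal list, 119, became 311, 47, 248 and 88 in turn, with the shares of all genes given above. They were 62 with group means kept, 22 with a list of Zic genes, Trpc4, Crhr2 and Gbx1 only, and 90 to 135 without a library. The 87 genes shared with Heroin-SA ranged from 63 to 156.

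Directions of the named DEGs turned only in fits with a list value. With the cortical value those that turned were Atp2b4 (-0.0602), Pcdhb8 (-0.13), Rps19 (-0.0317), Neurod6 (-0.21), the non-DEG Gfap (-0.40), Oxt (0.30) and Cck (-0.0369). With the septal value they were Oprd1 (-0.21), Chpt1 (0.0343), Isl1 (0.0125) and the non-DEG Zic1 (1.22). With both they were Adrb1 (-0.0777), Pnoc (0.0745), Oprd1 (-0.59), Adcy1 (-0.0092), Pcdhb8 (-0.0077), Sema5b (-0.12), Rspo3 (-0.16), Chpt1 (0.0934), Isl1 (0.21), Slc17a7 (-0.0049), Neurod6 (-0.25), Crh (0.17) and Cck (-0.42). The cause was not tested. Of genes that were no DEGs, Drd1, Drd2, Ppp1r1b, Ttr, Gfap, Cldn5, Oprm1 (-0.21 to 0.019), Pdyn (-0.15 to 0.20) and Fkbp5 (-0.0020 to 0.22) lay on either side of 0 over the leave-outs.

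Same-numbered libraries of the 2 groups did not vary together (r of their deviations from the group means -0.02, 0.09, 0.05 and 0.06, with 1 of 4 correlating best with its own number). These values gave no sign that the numbers pair the rats, but a low correlation across genes cannot exclude a pairing. With the replicate number as a block, 901 genes were called (500 up, 401 down), 724 of them among the 822, and 88 genes were shared with Heroin-SA. A choroid plexus covariate and a limit of 10 mean reads were added after seeing the data and gave 787 and 792 DEGs.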

Other observations

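Among growth factors and receptors (53 tested), 3 genes rose and 3 fell. Nrg3, a neuregulin of neurons, rose from 9.15 to 11.2 FPKM to 11.8 to 16.1 FPKM (0.46 ± 0.11), and Gfra1, a co-receptor for GDNF, fell from 8.95 to 12.9 FPKM to 6.81 to 8.80 FPKM (-0.48 ± 0.13), both without overlap. Of the 4 interneuron DEGs, Npy2r, a neuropeptide Y receptor, fell from 3.45 to 4.84 FPKM to 1.67 to 3.27 FPKM (-0.78 ± 0.22), and Elfn1, a synaptic organiser of interneurons, fell by 0.53 ± 0.15.

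Among 47 orphan receptors, Gpr165 (X chromosome, 65796429 to 65804591, rn6) had the largest change, from 7.08, 7.00, 9.18 and 6.73 FPKM in Saline-Saline to 1.21, 1.55, 4.01 and 3.44 FPKM in LPS-Heroin (-1.67 ± 0.35). It overlaps another gene model on the same strand, and its level followed the septal list value (r = 0.86). Klhl1, a kelch protein of neurons, fell by 1.58 ± 0.33 with r = 0.77. Of 24 endothelial genes, the efflux transporter gene Abcg2 fell from 2.92 to 5.11 FPKM to 2.04 to 2.61 FPKM (-0.73 ± 0.18), without overlap, and followed neither tissue list.

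Of the activity-regulated genes, LPS-Heroin replicate 1 was the highest of the 8 libraries. Arc was at 76.5 FPKM there against 12.1 to 25.4 FPKM in the other 3 and 27.5 to 62.2 FPKM in Saline-Saline, and Egr1 was at 105 FPKM against 51.2 to 61.4 FPKM and 63.7 to 95.2 FPKM.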
